A study of Mus musculus with 68 samples.

Results

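The genes described here encode the cytosolic ribosomal proteins of the mouse. They were taken by name: a symbol of Rpl or Rps, a number and at most 1 of the letters a, x and l, together with Rplp0, Rplp1, Rplp2 and Rpsa. This gave 81 members among the 24941 genes of 8 expression tables. Of them 32 belong to the small and 49 to the large subunit, and 5 are paralogs of another member (Rpl3l, Rpl10l, Rpl39l, Rps27l and Rps4l). All but Rps4l were listed in every table; Rps4l was listed in 3. A member was kept for a table when at least 2 of its libraries held 1 FPKM or more, a measure of reads per transcript length and library total that allows levels to be set between genes. The late 2-cell and 8-cell tables kept all their members (81 and 80). Rpl3l, a striated-muscle form of Rpl3, was left out of the other 6 tables, and Rpsa also of the 1-cell table, so that 80 were kept for oocytes, 78 for 1-cell embryos, 79 and 80 for the first and second E3.5 tables, and 79 each for E4.25 and E6.5.

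Ribosomal proteins assemble with ribosomal RNA into the small subunit, which reads the mRNA, and the large subunit, which joins amino acids. Their mRNAs are among the most abundant of dividing cells and commonly begin with a cytosine and a run of pyrimidines, the terminal oligopyrimidine (TOP) motif, through which growth signalling by mTOR controls their translation. A growing oocyte stores ribosomes and mRNA for the embryo, whose own genome becomes active after fertilisation. Some members have a relative copied elsewhere in the genome: Rpl10l and Rpl39l, known from the testis, can take the place of the X-linked Rpl10 and Rpl39, and Rps27l, known as a target of p53, is a close relative of Rps27.

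The series set wild type (WT) against loss of Ezhip, an X-linked gene whose product inhibits the histone methyltransferase PRC2. Smart-seq2 libraries of polyadenylated RNA were prepared from oocytes (labelled FGO), 1-cell (PN5), late 2-cell, 8-cell, E3.5 and E4.25 embryos, and epiblast and extraembryonic ectoderm at E6.5. Oocytes were WT (2 libraries), Ezhip Het (2) or Ezhip KO (3). Embryos were WT, Ezhip mHet or Ezhip mKO, terms that the labels do not spell out, with 2 libraries of each at the 1-cell and late 2-cell stages, in each E6.5 tissue and in the first of 2 tables at E3.5. The second of these had 5 of each. The 8-cell stage had 2 WT, 1 mHet and 3 mKO libraries, and E4.25 had 4 WT, 4 mKO and 1 mHet, since a pair of mHet libraries of that age held the same values throughout and counted as 1 sample. The sources used here give neither the strain, the age of the mothers, the deleted part of the gene nor the number of embryos per library, and nothing says that libraries came from separate animals. The p-values therefore measure the spread between these libraries, which may be technical.

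Ezhip followed its labels where WT expressed it. It stood at 297 to 546 FPKM in WT and 0 to 0.175 in KO oocytes, at 251 to 368 and 0.124 to 0.933 in WT and mKO 1-cell embryos, and at 15.7 to 15.9 and 0 to 0.585 in late 2-cell embryos; from the 8-cell stage on it was at most 1.5 FPKM and checks no label. Marker genes followed the stage and tissue: summed oocyte markers were 7485 to 19352 FPKM in oocytes and 33 to 63.5 at the 8-cell stage, summed epiblast markers 747 to 1045 in epiblast and 213 to 329 in extraembryonic ectoderm. Read depth is unknown, because FPKM keep no totals, so no counting interval is given. Rn45s, the ribosomal RNA precursor, took 0.209 to 1.47% of the summed FPKM in oocytes, but reached 68.6% at E4.25 and 69.5% at E3.5. The tables list different sets of genes and were normalized separately, so levels at different stages are set side by side without a test. Ribosomal protein genes have near-identical pseudogene copies and the treatment of reads that match several places is not given, so the level of any single member is uncertain.

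The pairs in which a member and its paralog part company below are shown first by the start of their genes. Each sequence gives the last 30 bases before the annotated start in lower case and the first 20 bases of the transcript in capitals, from RefSeq on GRCm38.p6, a build other than that named in the submitters' notes. Rps27 starts on the reverse strand of chromosome 3 (chr3:90213629-90213678), Rps27l on the forward strand of chromosome 9 (chr9:66946056-66946105, the first of its annotated starts), Rpl39 on the reverse strand of chromosome X (chrX:37085203-37085252) and Rpl39l on the forward strand of chromosome 16 (chr16:10170198-10170247).
Rps27: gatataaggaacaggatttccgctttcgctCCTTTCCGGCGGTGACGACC
Rps27l: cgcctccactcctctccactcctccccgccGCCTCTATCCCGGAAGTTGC
Rpl39: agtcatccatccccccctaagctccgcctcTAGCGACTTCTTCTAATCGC
Rpl39l: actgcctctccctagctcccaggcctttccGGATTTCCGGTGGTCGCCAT
Rps27 begins with a C followed by 4 bases that are each C or T, and the other 3 do not at the start shown. Such a start, read on the gene's own strand at the annotated first base, was found for 14 of the 61 members with an annotated promoter (23%) and for 813 of 27025 genes (3.01%). The annotated first base may lie some bases from the true one, so a member without a match may still carry the motif.

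The members made up a small share of the summed FPKM in oocytes, a very small one in 1-cell embryos and a large one at the 8-cell stage. In WT libraries they took 3.68% ± 0.461 of the summed FPKM in oocytes (SD, n = 2), 0.657% ± 0.109 in 1-cell embryos (n = 2), 8.3% ± 1.65 in late 2-cell embryos (n = 2) and 20.7% ± 3.69 at the 8-cell stage (n = 2). Over all genotypes the oocyte libraries ranged from 3.35 to 4.0%, the 1-cell libraries from 0.515 to 0.792%, the late 2-cell libraries from 6.22 to 9.79% and the 8-cell libraries from 18.1 to 25.9%. No library of 1 of these stages reached the range of another. From E3.5 on the WT shares were 16% ± 0.406 and 19.5% ± 5.96 in the first and second E3.5 tables (n = 2 and 5), 9.66% ± 7.31 at E4.25 (n = 4), 18.6% ± 2.01 in epiblast (n = 2) and 17.4% ± 0.176 in extraembryonic ectoderm (n = 2).

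**Figure D1:**
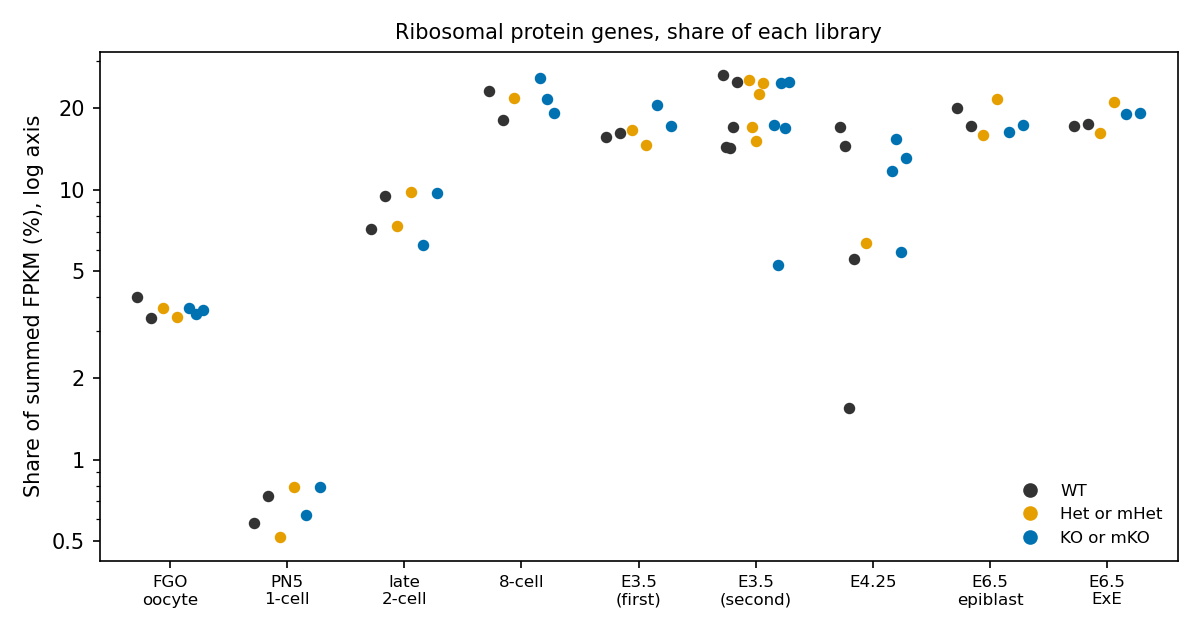
Share of the summed FPKM held by the ribosomal protein genes (y axis, percent, log axis) in each of the 67 libraries, by stage or tissue (x axis) and genotype (colour); each point is 1 library. The 1-cell libraries lie between 0.515 and 0.792%, below all others, and 1 E4.25 WT library lies at 1.55%.

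Between the oocyte and the 1-cell embryo 78 of 79 members were lower by their WT means, and the median member stood at 9.21% of its oocyte level. The median over the 8304 genes kept in both tables was 119%, and 58.6% of those genes were above 100%. All 6 1-cell libraries lay below all 7 oocyte libraries for 74 of the 79 members (10.6% of 9332 genes did so). Rps27l, above in all, was the only member whose 1-cell libraries all lay higher (18.5% of genes did so). The other 4 overlapped, among them Rps15a of the small subunit, Rpl22, an RNA-binding protein of the large subunit, and the paralog Rpl10l. These values are shares of polyadenylated RNA and do not give the amount of an mRNA per cell. At later stages with several cell types, fewer cells of a type and less RNA per cell cannot be told apart in bulk libraries.

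The depth of the fall differed widely among members. Rps27, a zinc-finger protein of the small subunit, stood at 166 and 181 FPKM in WT oocytes and at 0.18 and 1.63 in WT 1-cell embryos, 0.52% of its oocyte mean. Rps27a, which is made as a fusion with ubiquitin, was at 328 and 143 against 1.05 and 1.88 FPKM (0.624%), and Rpsa, also known as the laminin receptor, at 23.6 and 22.5 against 0.0885 and 0.222 FPKM (0.673%). Rpl22 kept 72.1% of its oocyte mean, from a low level of 6.59 and 9.44 FPKM in oocytes.

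The proteins of the P stalk, the arm of the large subunit that recruits elongation factors, did not keep together. Rplp0, the base of the stalk, held 28.3% and Rplp2 32.5% of the oocyte mean in 1-cell embryos, and Rplp1, the partner of Rplp2, held 7.0%. In 1-cell embryos of all genotypes Rplp1 was at 5.47 to 21.6 FPKM, below Rplp2 at 41 to 67.9 in every library. In oocytes both were between 122 and 234 FPKM and their ranges overlapped. Of the X-linked members, Rpl10 held 34.6% and Rpl39 1.38% of the oocyte mean.

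Genes of related function fell less by the same measure. Mitochondrial ribosomal protein genes had a median of 41.8% (72 genes), ribosome biogenesis genes 94.1% (39 genes) and other TOP mRNAs and elongation factors 93.2% (19 genes). The 6 ribosomal proteins that the name rule leaves out, such as Fau and Rps3a1, had a median of 19.4%, and 0 of them were above 100%. Members with and without the TOP-like start had medians of 12.1% (13 members) and 11.1% (46 members).

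The 1-cell libraries with the replicate number 1 held less than those with the number 2 in all 3 genotypes: the median member was at 7.87, 6.72 and 7.16 FPKM in WT, mHet and mKO replicate 1 and at 15.6, 14.7 and 15.8 in replicate 2. Rpl17, which lies near the exit of the peptide tunnel, was at 8.21 to 17.8 against 129 to 160 FPKM, and Rpl7a at 0.118 to 0.347 against 28.2 to 33.2. This split runs across genotypes, and the labels do not say what the numbers share.

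Late 2-cell libraries held higher FPKM than 1-cell libraries for nearly every member. All late 2-cell libraries lay above all 1-cell libraries for 78 of 80 members (36.2% of 10970 genes did so), and Rps27l and Rpl17 overlapped. Relative to oocytes the median member was 1.77-fold higher in WT, 64 of 80 members were higher, and 41 of 81 did not overlap upward (32.9% of 11565 genes). Rpl9, of the large subunit, rose from the lowest levels of oocytes (2.3 and 16.7 FPKM in WT) to 211 and 324 FPKM, 28.1-fold by the means. Rpl5, which carries 5S RNA into the ribosome, was 0.296-fold its oocyte level, and Rpl5, Rpl7a and Rpl17 were the 3 members whose late 2-cell libraries all lay below the oocyte libraries (20.1% of genes did so). Ribosome biogenesis genes stood at a median of 388% of the oocyte level (39 genes) and mitochondrial ribosomal protein genes at 76.7% (73 genes).

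The next step was larger. From the late 2-cell to the 8-cell stage the median member was 4.02-fold higher in WT and 77 of 80 members did not overlap upward (18.7% of 10451 genes did so), while the median over all genes was 71.1%. Rpl3, which lies close to the peptidyl transferase centre, went from 13.1 and 44.7 FPKM in WT late 2-cell embryos to 609 and 846 at the 8-cell stage, 25.2-fold by the means. Rpl10l and Rpl39l overlapped between these stages and Rpl3l lay lower in all 8-cell libraries (32.3% of genes did so), so the 3 members that did not follow were all paralogs. The paralog Rps27l did follow, from 381 to 805 FPKM in late 2-cell libraries to 819 to 1347 in 8-cell libraries. Rps4l was not listed at the 8-cell stage. Biogenesis genes were at a median of 117% here (44 genes), and other TOP mRNAs and elongation factors at 378% (19 genes). At the 8-cell stage the middle of the members was also narrow: their upper quartile was 1.79 to 2.02 times the lower one, against 4.06 to 8.37 times in 1-cell embryos.

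**Figure D2:**
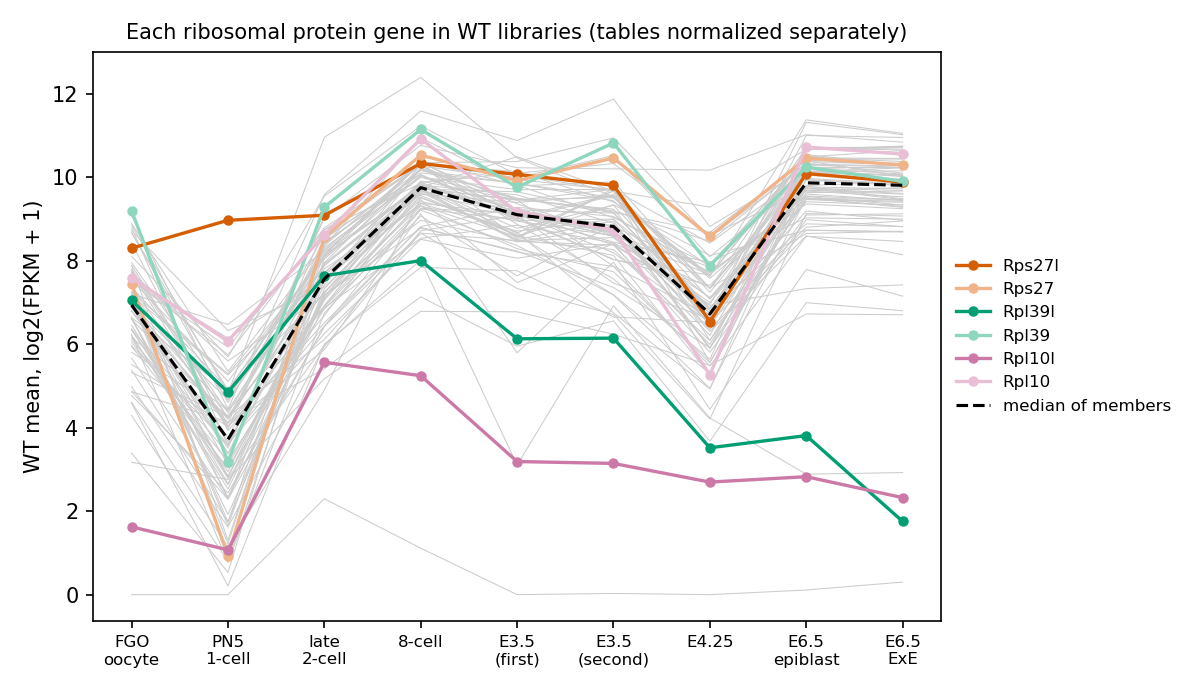
WT mean of each of the 81 members as log2(FPKM + 1) (y axis) by stage or tissue (x axis); grey lines are members, coloured lines 3 paralogs and their parent genes, and the dashed line is the median of the members. Rps27l is higher in 1-cell embryos than in oocytes, where the median of the members dips; the tables were normalized separately, so the lines join values set side by side.

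Small subunit members together held less FPKM than large subunit members at most stages. Of the 81 members 32 are of the small and 49 of the large subunit. A ratio of sums below 1 therefore does not show a lower level per gene. Their sums stood in a ratio of 0.651 to 0.709 in oocytes, 0.798 to 0.837 in late 2-cell and 0.705 to 0.775 in 8-cell embryos, 0.775 to 0.807 in epiblast and 0.798 to 0.825 in extraembryonic ectoderm. In 1-cell embryos the ratio was 0.961 to 2.05, highest in the libraries in which Rps27l, itself of the small subunit, made up the largest part.

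The most and least abundant members changed between stages. Rpl39, Rps29 and Rpl32 led in WT oocytes (587, 542 and 476 FPKM), and Rps27l in 1-cell embryos (502 FPKM), with Rpl17 also among the 3 highest (79.3 FPKM). Rpl41, which encodes a very short basic peptide, led from the late 2-cell stage, at 1995 ± 217 FPKM there (SD, n = 2) and 5399 ± 399 at the 8-cell stage (n = 2), followed by Rps29 at both. Rps29 led both E3.5 tables (1888 ± 447, n = 2, and 3763 ± 2047, n = 5), Rplp1 led at E4.25 (1156 ± 1190, n = 4) and Rpl41 both E6.5 tissues (2665 ± 483 and 2127 ± 106, n = 2 each). Rpl10l, Rpl22 and Rpl9 were lowest among the members kept in oocytes, and Rpl10l was among the 3 lowest at every stage from the 8-cell stage on. The members whose rank moved most between tables were Rpl17 (rank 3 to 74), Rps27 (5 to 75), Rpl9 (12 to 78), Rpl10 (5 to 70) and Rplp0 (3 to 68). Between the E3.5 tables, which hold the same stage, WT means ran from 0.261-fold (Rpl3) to 15.9-fold (Rpl21) of each other, a spread as wide as many between stages, so the rank of a single member across tables is uncertain.

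The part of a pair held by its paralog differed between stages. Rps27l was at 323 and 307 FPKM in WT oocytes and 576 and 427 in WT 1-cell embryos, against 166 and 181 and then 0.18 and 1.63 for Rps27. Its share of the pair was 62.2 to 70.4% in the 7 oocyte libraries, 98.3 to 100% in the 6 1-cell libraries, 55.9 to 66.2% at the late 2-cell stage and 33.9 to 50.1% at the 8-cell stage. Over the oocyte, 1-cell and 8-cell stages no 2 of these ranges overlapped. In the 1-cell libraries Rps27l alone held 18.7 to 42.3% of the FPKM of all members, and without the 5 paralogs the WT share of the members was 0.474%.

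Rpl39l was at 127 to 154 FPKM in oocytes and 24.9 to 31.1 in 1-cell embryos, while Rpl39 went from 332 to 843 down to 4.94 to 16.2. Rpl39l therefore made up 13.9 to 29.4% of the pair in oocytes, 61.4 to 86.3% in 1-cell embryos, 20.9 to 29.6% in late 2-cell embryos and 5.8 to 17.1% at the 8-cell stage. In epiblast it was at 4.99 to 20.4 FPKM and 0.528 to 2.13% of the pair. The 1-cell range stood above all others.

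Rpl10l had its peak later. It was at 0.676 to 3.48 FPKM in oocytes and 0.414 to 2.05 in 1-cell embryos, 39.8 to 58.2 in late 2-cell embryos and 32.2 to 60.5 at the 8-cell stage, and its median fell to 10.8 and 9.26 FPKM in the E3.5 tables. At the late 2-cell stage it held 8.09 to 12.2% of the pair with Rpl10, against 1.73 to 3.62% at the 8-cell stage. Rpl3l reached 2.28 to 7.07 FPKM in late 2-cell embryos and at most 1.17 in any other library. Rps4l, a relative of the X-linked Rps4x, was at 9.86 to 47 FPKM in oocytes and 60.7 to 99.7 in late 2-cell embryos, 25 to 32.6% of its pair there.

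**Figure D3:**
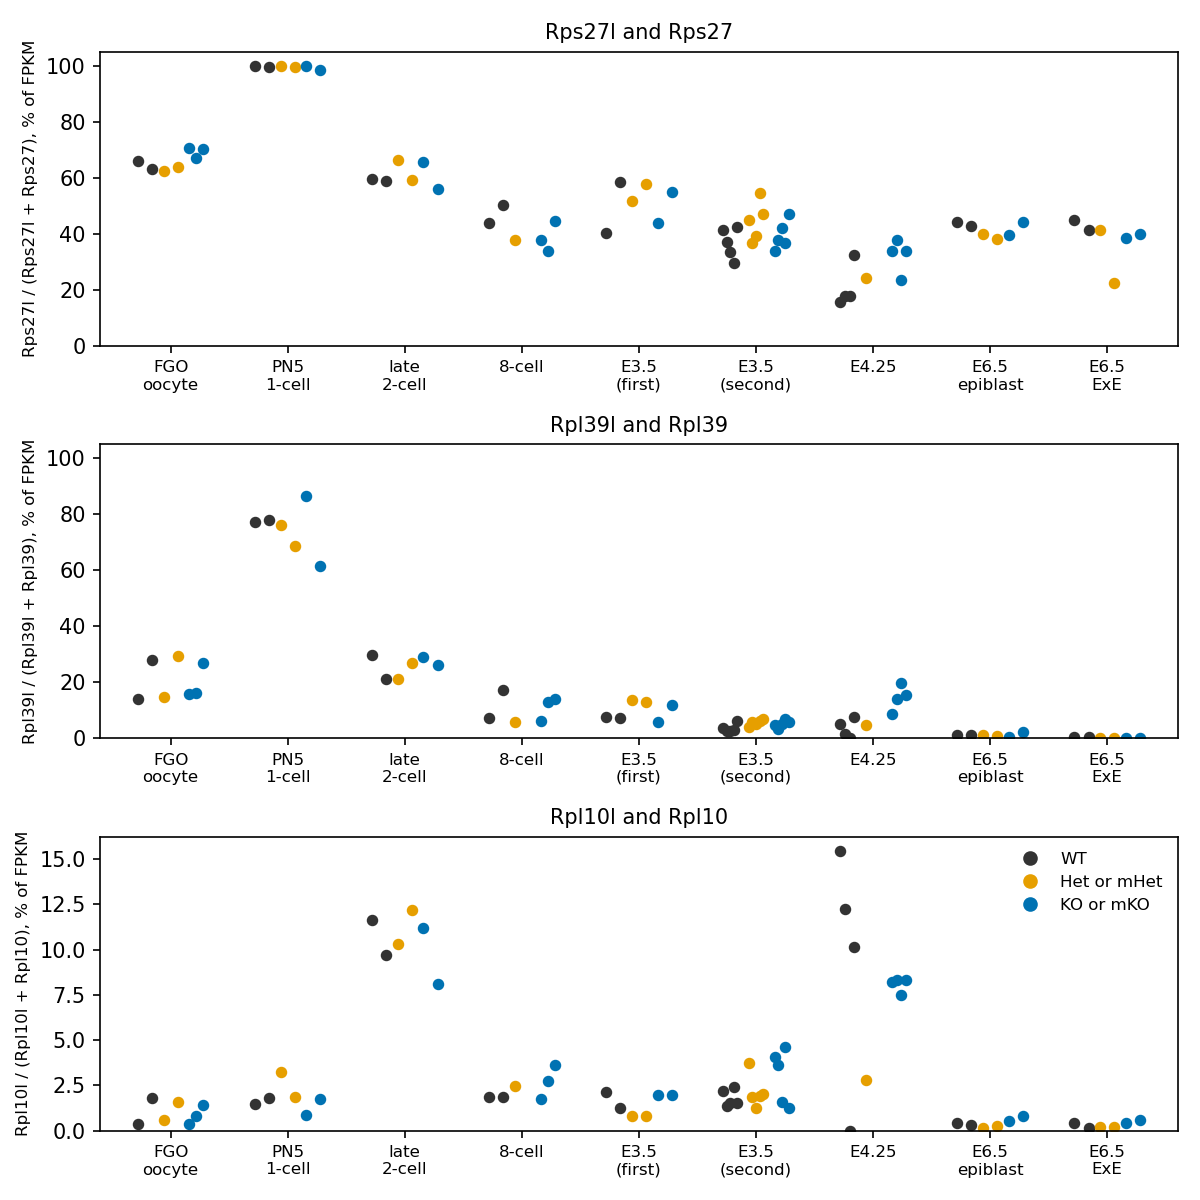
Paralog as a percentage of the FPKM of the paralog and its parent gene (y axis) in each library by stage or tissue (x axis) and genotype (colour), for Rps27l, Rpl39l and Rpl10l from top to bottom; each point is 1 library and the lowest panel has a shorter axis. Rps27l lies at 98.3 to 100% and Rpl39l at 61.4 to 86.3% in 1-cell embryos, and Rpl10l at 8.09 to 12.2% in late 2-cell embryos, a range that E4.25 libraries (0 to 15.5%) also cover.

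The loss of Ezhip was tested at each stage on log2(FPKM + 1) with limma, with p-values adjusted over all genes kept and a threshold of 0.05. In oocytes 0 of 80 members passed between KO and WT (0.0102% of 9818 genes passed), between Het and WT (0%) and between KO and Het (0.0102%), and 0 had an unadjusted p under 0.05 in any of the 3 (0.112, 0.0713 and 0.0917% of genes had). The median member differed by -0.07 between KO and WT, beside -0.05 for all genes, and 27 of 80 were higher in KO (41.9% of genes), or 40 of 80 after scaling the libraries by median ratios. With 1 library left out the median ran from -0.21 to 0.01, turning without KO replicate 2. Rps27 was at 140, 109 and 157 FPKM in KO and 166 and 181 in WT (log2 difference -0.37, SE 0.40), and Rpl39 at 815, 704 and 396 against 843 and 332 (0.21, SE 0.35), each with a limma adjusted p of 1. The Rps27 libraries did not overlap and the Rpl39 libraries did, and the share of all genes without overlap was not counted for this comparison. Rpl39 was at 704 to 843 FPKM in replicate 1 of WT and Het and replicates 1 and 2 of KO. In the other oocyte libraries it was at 332 to 396. This split runs across genotypes and follows the order of the library numbers, with the higher values in the earlier numbers. The labels do not say what these libraries share.

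The 1-cell embryos gave 0 of 78 members past the threshold for mKO against WT (0.0116% of genes), mHet against WT (0%) and mKO against mHet (0.0116%), with 0 members at an unadjusted p under 0.05 (2.49, 0.837 and 1.86% of genes). The median member differed by -0.004 between mKO and WT, with 38 of 78 higher (39.2% of genes), or 46 of 78 after median ratio scaling. It ran from -0.50 to 0.40 with 1 library left out, above 0 without WT replicate 2 or mKO replicate 1. Rps19 was at 2.03 ± 1.77 FPKM in mKO and 0.706 ± 0.0104 in WT (SD, n = 2 each; 0.69, SE 0.45, limma adjusted p = 1.0). Rps27l was at 752 and 433 in mKO against 576 and 427 in WT, and its share of the pair stayed above 98% in each of the 6 libraries.

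In late 2-cell embryos 0 of 81 members passed for mKO against WT (0.00969% of genes), mHet against WT (0%) and mKO against mHet (0.0872%), again with 0 at an unadjusted p under 0.05 (7.56, 2.94 and 9.37% of genes). The median member was at -0.11 in mKO against WT, beside -0.07 for all genes, with 16 of 81 higher (42% of genes), or 31 of 81 after median ratio scaling. That median had no stable sign: with 1 library left out it ran from -0.54 to 0.27, and it was above 0 without WT replicate 2 or mKO replicate 1. For mHet against WT the median was 0.11, beside 0.03 for all genes, and ran from -0.20 to 0.42 with 1 library left out. For mKO against mHet it was -0.24, beside -0.10 for all genes, and ran from -0.61 to 0.16. Rpl12, of the large subunit's stalk base, showed the smallest p, with means of 40.1 ± 13.7 FPKM in mKO and 60.8 ± 22.9 in WT (SD, n = 2 each; -0.58, SE 0.35, limma adjusted p = 0.787). Rpsa was at 44 and 54.8 FPKM in mKO and at 67.2 and 59.4 in WT (-0.36, SE 0.23, limma adjusted p = 0.82), without overlap. Groups of 2 libraries separate easily, and the share of all genes that did so was not counted for this comparison.

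At the 8-cell stage 0 of 80 members passed for mKO against WT (0.012% of genes), and 0 had an unadjusted p under 0.05 (4.01% of genes). The median member was 0.09 higher in mKO, beside -0.04 for all genes, and 70 of 80 were higher (45.1% of genes). With 1 library left out the median stayed between 0.03, without mKO replicate 1, and 0.20, without mKO replicate 3. Rps27l was at 1080, 819 and 1059 FPKM in mKO and 1347 and 1235 in WT (-0.40, SE 0.25, limma adjusted p = 0.999), and Rps27a, on the other side, at 2556, 1935 and 1018 against 1494 and 1036 (0.46, SE 0.36, limma adjusted p = 0.999). Only the first of these did not overlap, and the share of all genes without overlap was not counted for this comparison. Rps27a was at 1466 to 2556 FPKM in WT replicate 1, the mHet library and mKO replicates 1 and 2. In WT replicate 2 and mKO replicate 3 it was at 1036 and 1018. This split, too, runs across genotypes and follows the order of the library numbers.

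The first E3.5 table gave 0 of 79 members past the threshold for mKO against WT (0.0407% of genes), mHet against WT (0%) and mKO against mHet (0.0407%), with 1, 0 and 1 at an unadjusted p under 0.05 (5.48, 7.75 and 5.42% of genes). All 79 were higher in mKO than in WT (67.5% of genes were), with a median of 0.70 beside 0.21 for all genes. WT replicate 1 was low for most members, and its median member was at 321 FPKM against 736 to 834 in the other 5 libraries. Without it the median was 0.10, beside -0.13 for all genes, and 58 of 79 were higher; without WT replicate 2, 5 members passed in mKO (6.33%, beside 0.581% of genes) and 33 in mHet (41.8%, beside 18.9%), each set against WT replicate 1 alone. Rn45s took 21% of that library and 2.13 to 9.12% of the others, and its part in the result was not tested. Both WT libraries held Y-linked transcripts and neither mKO library did, so sex and genotype cannot be told apart here. X-linked Rpl10 was at 1052 and 1926 FPKM in mKO and 202 and 955 in WT (1.69, SE 0.78, limma adjusted p = 0.949). Of the other X-linked members, Rps4x was at 764 and 1195 against 201 and 738 (1.31, SE 0.73), while Rpl36a and Rpl39 differed by 0.76 (SE 0.60) and 0.62 (SE 0.54), each with a limma adjusted p of 0.949. The 3 P stalk members lay between 0.54 and 0.61.

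With 5 libraries per genotype, the second table of E3.5 gave 0 of 80 members past the threshold for mKO against WT (0.0539% of genes), mHet against WT (0%) and mKO against mHet (0.0108%), and 0 at an unadjusted p under 0.05 (5.76, 1.62 and 6.22% of genes). The median member was 0.20 lower in mKO than in WT, beside -0.10 for all genes, and 11 of 80 were higher (35.5% of genes). The mKO and WT libraries overlapped for all 80, while 0.0539% of genes lay wholly higher and 1.82% wholly lower. Rpl39 ran from 194 through 1296 to 2626 FPKM (lowest, median, highest) in mKO and from 979 through 1613 to 3166 in WT (-0.68, SE 0.62, limma adjusted p = 1). The member share ran from 5.28 to 25% in mKO libraries, from 15.1 to 25.4% in mHet and from 14.2 to 26.7% in WT. The lowest of these, mKO replicate 4, was the library with 69.5% Rn45s; with Rn45s left out its share was 17.3%, still the lowest of the 15. With all libraries scaled by median ratios 36 of 80 were higher in mKO, and with Rn45s removed 35. Without WT replicate 3, WT replicate 7 or mKO replicate 4 the median turned to 0.01, 0.14 and 0.36. For mHet against WT the median was 0.31, beside 0.14 for all genes, and ran from 0.09 to 0.59 with 1 library left out. For mKO against mHet it was -0.55, beside -0.24 for all genes.

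E4.25 was the stage at which members passed. Rpl39l, Rpl3 and Rpl10 were higher in mKO than in WT, 3 of 79 members (3.8%), beside 14.3% of the 9550 genes tested (14.6% in either direction). All 79 were higher in mKO (86.2% of genes were), with a median log2 difference of 1.29 beside 0.74 for all genes, and 15 had an unadjusted p under 0.05 (35.5% of genes). Of the 79, 73 overlapped between the groups and 6 were wholly higher (21.6% of genes were).

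Rpl39l was at 32.4, 92.9, 34.3 and 60.6 FPKM in the 4 mKO and 24.7, 4.71, 0 and 12.4 in the 4 WT libraries (log2 difference 2.94, SE 0.85, limma adjusted p = 0.0326). Rpl3 was at 128, 222, 94.1 and 164 against 44, 33.3, 8.84 and 32.1 (2.45, SE 0.74, limma adjusted p = 0.0385). X-linked Rpl10 was at 125, 234, 122 and 195 against 71.2, 40.9, 9.82 and 28.3 (2.39, SE 0.77, limma adjusted p = 0.0483). Each of the 3 was higher in every mKO library than in every WT library. At the other end, Rplp1 was at 609, 1108, 228 and 606 FPKM in mKO and at 2370, 1983, 92.3 and 177 in WT (0.07, SE 1.11, limma adjusted p = 0.97), with WT libraries both above and below all mKO libraries. The other P stalk members, Rplp0 and Rplp2, differed by 0.70 and 0.83, Rpsa by 0.81 and Rps27a by 1.56. The X-linked Rps4x differed by 1.61 (SE 0.83, limma adjusted p = 0.171), and Rpl36a was at 252, 395, 84.4 and 288 FPKM in mKO and 168, 108, 14.3 and 104 in WT (limma adjusted p = 0.208), which overlap.

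These calls rest on few libraries. The WT libraries fell apart, with member shares of 17, 14.5, 1.55 and 5.54%, against 11.8, 15.4, 5.9 and 13.1% in mKO and 6.36% in the mHet sample. Rn45s took 21, 38.6, 68.6 and 60.5% in WT and 24.2, 11.7, 52.4 and 26.6% in mKO. Left out of the total, it gave member shares of 21.5, 23.7, 4.94 and 14% in WT and 15.5, 17.4, 12.4 and 17.9% in mKO, which overlap. Summed markers moved as well: trophectoderm markers (6 of 6 at a mean of 1 FPKM or more in both groups) at 94.1 to 693 FPKM in WT and 598 to 1383 in mKO, inner cell mass markers (3 and 4 of 4) at 4.27 to 10.3 and 14.4 to 67.3, and 0 of either list were at 0 throughout a group. Their part in the result was not tested. No member passed after median ratio scaling (53 of 79 higher, median 0.24; 0.327% of genes passed), with Rn45s removed (76 of 79 higher, median 0.81; 2.22% of genes) or without the filter on low values (1.65% of genes). Without WT replicate 3 the median was 0.62, beside 0.66 for all genes, and 2 members passed (2.53%, beside 11.6% of genes). Without WT replicate 2 or mKO replicate 1, 2 or 4 no member passed (3.45 to 6.72% of genes). The count was 2 without WT replicate 4 (13.4% of genes), 4 without WT replicate 1 (18.9%) and 7, or 8.86%, without mKO replicate 3 (20.3%). With a term for sex, read from Y-linked transcripts (3 of 4 WT and 2 of 4 mKO libraries), 27 members passed (34.2%, beside 27.3% of genes). With a term for the run of library numbers a sample belonged to, 8 did (10.1%, beside 20.3%).

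**Figure D4:**
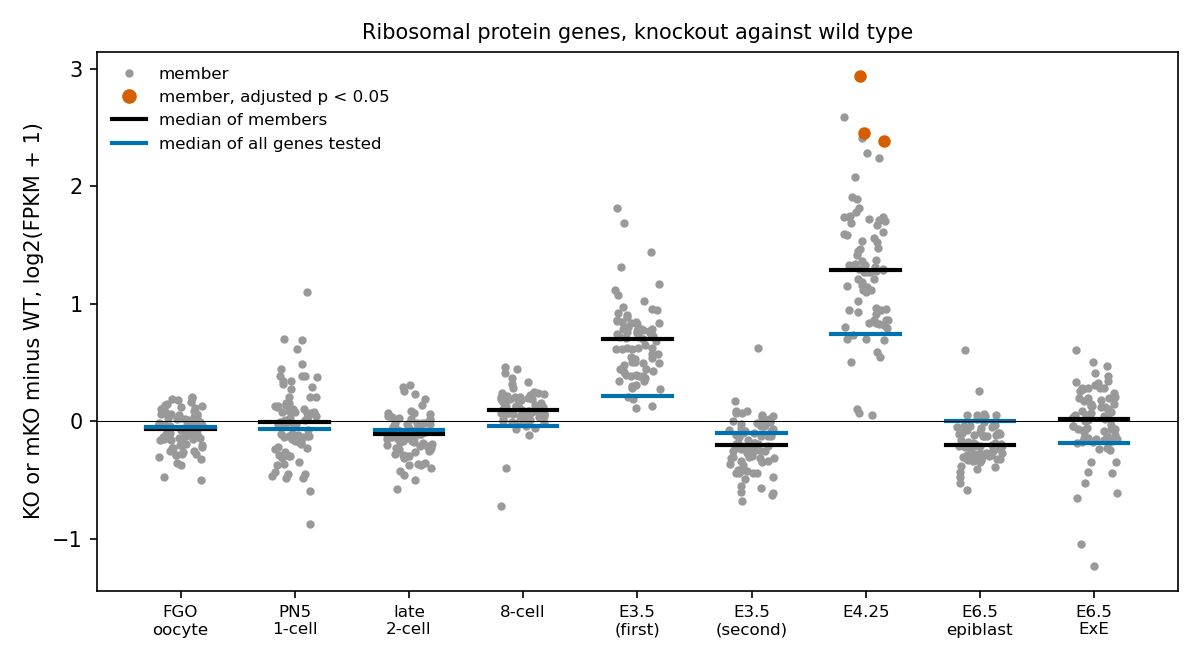
Difference between KO or mKO and WT on the log2(FPKM + 1) scale (y axis) for each member (points, orange where limma's adjusted p was under 0.05) by stage or tissue (x axis), with the median of the members (black bar) and of all genes tested (blue bar). The 3 orange points are Rpl39l, Rpl3 and Rpl10 at E4.25, where the blue bar is at 0.74 itself.

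In epiblast 0 of 79 members passed for mKO against WT (0.00907% of genes), mHet against WT (0.0272%) and mKO against mHet (0%), with 0, 0 and 1 at an unadjusted p under 0.05 (4.44, 3.56 and 2.46% of genes). The median member was 0.20 lower in mKO than in WT, beside 0.005 for all genes, and 9 of 79 were higher (50.5% of genes). With 1 library left out it lay between -0.39, without the WT library whose column is numbered 4, and -0.04, without that numbered 3. Rpl23a, at the peptide exit, was at 573 ± 0.0586 FPKM in mKO and 873 ± 215 in WT (SD, n = 2 each; -0.59, SE 0.35, limma adjusted p = 1.0). X-linked Rpl36a was at 425 and 372 FPKM against 696 and 474 (-0.53, SE 0.36, limma adjusted p = 1.0). Their libraries did not overlap, as for 32 members that were wholly lower (21.1% of genes) and 2 that were wholly higher (20.6%). Summed trophectoderm markers differed between the epiblast libraries, at 53.4 to 70.8 FPKM in WT, 188 to 205 in mHet and 88.6 to 252 in mKO. Summed inner cell mass markers overlapped, at 136 to 177 in WT and 137 to 138 in mKO. The part of either in the result was not tested.

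In extraembryonic ectoderm 0 of 79 members passed for mKO against WT (0%), mHet against WT (0%) and mKO against mHet (0.00907%), with 2, 2 and 1 at an unadjusted p under 0.05 (7.74, 5.89 and 2.47% of genes). The median was 0.02 for mKO against WT, beside -0.19 for all genes, and 43 of 79 were higher (33.2% of genes), or 69 of 79 after median ratio scaling. It ran from -0.15 to 0.15 with 1 library left out, below 0 without WT replicate 1 or mKO replicate 2. Rpl30, of the large subunit, was at 368 and 323 FPKM in mKO, 421 and 290 in mHet and 715 and 708 in WT (mKO against WT -1.04, SE 0.34, limma adjusted p = 0.502; mHet against WT -1.02, SE 0.34, limma adjusted p = 0.677). The WT libraries, shared by both comparisons, were above the other 4. Rpl39l, at 2.96 FPKM or less in this tissue, was the other member with an unadjusted p under 0.05 in both. Its log2 difference was -1.23 for mKO and -1.73 for mHet against WT (SE 0.51 each, limma adjusted p = 0.61 and 0.677). Leaving out mHet replicate 1, which leaves mHet replicate 2 with 11.6% Rn45s, gave 18 members past the threshold for mHet against WT (22.8%, beside 23.9% of genes) and 5 for mKO against mHet (6.33%, beside 3.79%). The mKO effect did not pass for any of 79 members as a difference between the E6.5 tissues (0% of genes), and 0 members had an unadjusted p under 0.05 (3.41% of genes). Its smallest p was that of Rpl23a (log2 difference of the effects 0.86, SE 0.50, limma adjusted p = 0.972).

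Rpl10l was the member with the smallest p on the higher side in 5 of the 9 comparisons of KO or mKO with WT, and is described as chosen after its values were seen. Its log2 difference was 0.44 at the 8-cell stage, 1.82 and 0.62 in the E3.5 tables, 1.78 at E4.25 and 0.61 in each E6.5 tissue, and -0.11, -0.18 and -0.17 in oocytes, 1-cell and late 2-cell embryos. None passed, with limma adjusted p-values from 0.081 at E4.25 to 1. Its levels were low: 9.08 and 10.4 FPKM in mKO epiblast, 7.03 and 5.17 in WT, and 2.54 and 4.43 in mHet. Rpl10l is a near copy of Rpl10, which stood at 1264 to 1715 FPKM in the same libraries, so reads of Rpl10 may be counted for it.

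Between the E6.5 tissues, over all genotypes, Rpl39l was the 1 member of 79 to pass (33.5% of the 11028 genes passed, 19.4% as lower), and 3 had an unadjusted p under 0.05 (43.2% of genes). In epiblast the WT libraries held 14.9 and 11.2 FPKM of it, the mHet libraries 9.87 and 10.2, and the mKO libraries 4.99 and 20.4. In extraembryonic ectoderm these values were 2.96 and 1.79, 0 and 0, and 0 and 1. It was lower in the ectoderm by 2.84 on the log2 scale (SE 0.30, limma adjusted p = 1.34e-05), and all 6 libraries of it were below all 6 of epiblast (12.7% of genes were). With the WT libraries alone the difference was -2.07 (limma adjusted p = 0.00208). Its parent Rpl39 was at 817 to 1501 FPKM in epiblast and 842 to 1377 in extraembryonic ectoderm, which overlap. A value listed at 0 in such a table can be a failed estimate.

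Other members were close to level between the tissues. The median member was 0.07 lower in extraembryonic ectoderm, beside -0.11 for all genes, with 27 of 79 higher (42.3% of genes); after median ratio scaling 47 of 79 were higher, and with Rn45s removed 37. The median ran from -0.16 to 0.03 with 1 library left out, above 0 without the WT library numbered 3 or the mHet library numbered 4 of epiblast. Next to Rpl39l came Rpl10l (4.14 ± 2.29 FPKM in the ectoderm and 6.45 ± 2.97 in epiblast, SD, n = 6 each; -0.56, SE 0.24, limma adjusted p = 0.0927) and Rpl30 (471 ± 192 and 610 ± 136; -0.43, SE 0.20, limma adjusted p = 0.111). On the higher side Rpl28 had the smallest p (590 ± 244 and 413 ± 97.5; 0.46, SE 0.23, limma adjusted p = 0.154). Without mHet replicate 1 of the ectoderm, 18 of 79 members passed (22.8%, beside 49.3% of genes).

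**Figure D5:**
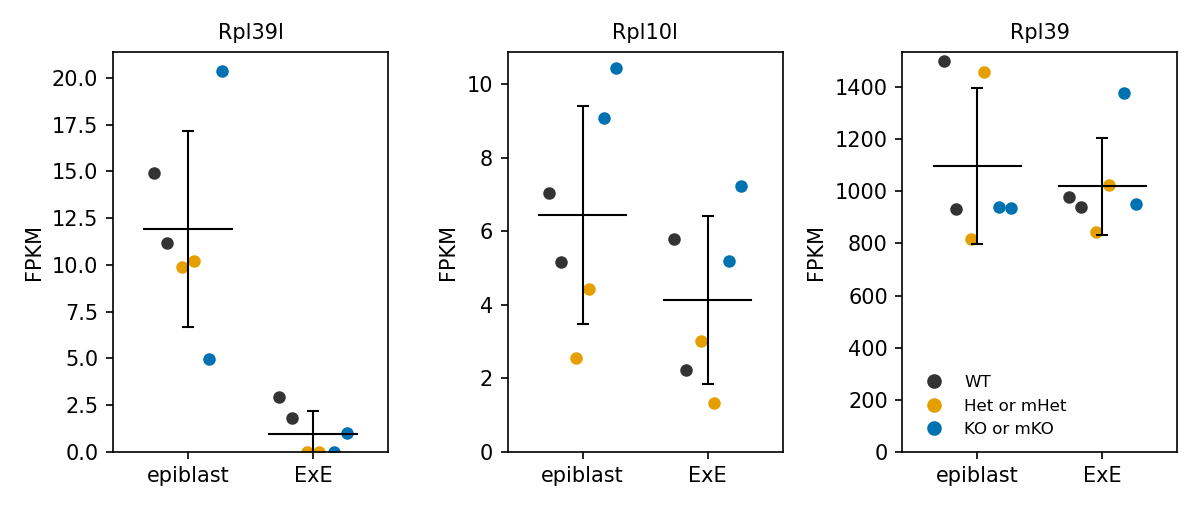
FPKM of Rpl39l, Rpl10l and Rpl39 (y axes, each with its own scale) in E6.5 epiblast and extraembryonic ectoderm (ExE, x axis); points are the 6 libraries of each tissue coloured by genotype, the horizontal bar is their mean and the error bar their SD. Rpl39l is at 4.99 to 20.4 in epiblast and at most 2.96 in ExE, and Rpl39 overlaps.

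Among the 9 comparisons of KO or mKO with WT and that of the tissues, other genes that make or work with ribosomes passed in the same 2 as the members. Over all genes these were also the 2 in which most passed, 14.6% at E4.25 and 33.5% between the tissues. In the others at most 0.0539% of all genes passed. At E4.25, 4 of 44 biogenesis genes were higher in mKO, among them Emg1, which modifies 18S RNA (30.5 ± 16.1 against 1.57 ± 1.83 FPKM, SD, n = 4 each; 3.79, SE 0.63, limma adjusted p = 0.00365), and Polr1b, a subunit of RNA polymerase I (11.2 ± 4.26 against 1.24 ± 1.18; 2.51, SE 0.48, limma adjusted p = 0.00705). Of the other TOP mRNAs and elongation factors 2 of 19 were higher, Eif4a2 (122 ± 30.6 against 26.5 ± 8.95 FPKM) and Eif3h (31.4 ± 16.5 against 7.82 ± 4.86), and of mitochondrial ribosomal proteins 11 of 73, beside 14.6% of all genes. None of the 6 ribosomal proteins outside the name rule passed, with a median of 1.25. Between the tissues Npm1, a nucleolar chaperone, was lower in the ectoderm (2107 ± 635 against 3208 ± 486 FPKM, n = 6 each; -0.66, SE 0.21, limma adjusted p = 0.0273), 1 of 19. There 2 of 44 biogenesis genes were lower, and of 73 mitochondrial ribosomal proteins 5 were higher and 3 lower. Beside these stand 33.5% of all genes, 19.4% as lower. In the other 8 comparisons of KO or mKO with WT none of these genes passed.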

How the data were processed

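Columns of 8 deposited tables were matched to samples through titles; the E6.5 epiblast columns carry other numbers than the titles and were matched to their group alone. Per the file headers and the labels, the authors deposited FPKM per gene and library. The submitters' processing notes name HISAT2 2.2.1, HTSeq 0.6.0 and Trim Galore 0.4.2; the sources used here give neither the tool behind FPKM nor the annotation. FPKM are shares of a library, so Rn45s lowers all other values where it is high. Names turned into dates were dropped (25, 27 and 27 in 3 tables). Of 68 libraries 67 were used.

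Each table was fitted alone with limma 3.58.1 in R 4.3.3 (lmFit, eBayes with a trend) on log2(FPKM + 1), over all its groups, for genes that reached 1 FPKM in 2 or more libraries. This gave 25 comparisons with two-sided p-values adjusted by Benjamini and Hochberg. The fit was tested on simulated data. Genes were named by rule: members past the threshold or with the 3 smallest p in each direction, the 3 highest and lowest WT levels of a table, the P stalk, Rpsa, Rps27a, X-linked members, paralogs with their parents, the 5 with the widest range of ranks, and up to 4 members of each related list; the text names a selection, and some results of single genes are not reported here. The members, lists and tests were chosen with earlier results of these data known. Alternatives changed the pseudocount, filter, scaling, Rn45s, libraries left out, replicate number, set of library numbers and a sex term from 4 Y-linked transcripts.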

Additional observations from a re-analysis of the deposited data

Results flagged for a closer look

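In 1 of 55 checks, each of 1 quantity in 1 group of 4 to 10 libraries, 1 library stood far from the rest. Rps27l was at 24.4 FPKM in E4.25 WT replicate 3 and at 111 to 123 FPKM in the other 3 WT libraries. The checks went over the same few groups for several quantities and are not independent. About 1 in 20 such checks would be picked out by chance. The same library had the lowest member share of the series after the 1-cell stage and the second highest Rn45s share, values given above; their part was not tested.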

How the results depend on the processing

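The number of members past limma's threshold was within 1.5 times the reported one in 280 of 299 alternative settings, and in every setting for 19 of 25 comparisons. The reported number was 0 in all comparisons but E4.25 mKO against WT and that of the tissues. For those at 0 a setting counts as within only when it gives 0 again, which small groups make likely. At E4.25, where 3 passed, 1 did with a pseudocount of 0.1 (9.09% of genes), 0 with no filter, with median ratio scaling or with Rn45s removed, 8 with the set of library numbers as a term, 27 with a sex term, and 0 to 7 when a library was left out. The adjusted p of Rpl39l there was 0.0761, 0.149, 0.239 and 0.102 in the first 4 of these settings, 0.0216 with the set of numbers and 0.00672 with the sex term. Leaving out a library gave 0 to 5 members for mKO and 0 to 33 for mHet against WT in the first E3.5 table (most without WT replicate 2), 0 to 18 for mHet against WT and 0 to 5 for mKO against mHet in extraembryonic ectoderm, and 1 to 18 between the tissues (most without mHet replicate 1 of the ectoderm). A group left with 1 library was assumed to vary like the others. The cause was not tested.

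Of the named genes, 404 of 448 settings kept direction and side of the threshold. With a library left out, the direction turned for Rpl39 in KO oocytes (without WT replicate 2 or KO replicate 1, limma adjusted p from 0.914 to 1), for Rps27l in mKO 1-cell embryos (without WT replicate 2 or mKO replicate 1, 0.583 to 1.0) and for Rpl14 in mKO late 2-cell embryos (without mKO replicate 2, 0.719 to 1.0), where the values are ranges over all libraries left out. At E4.25, Rpl39l passed in 8 of 16 alternative settings, Rpl3 in 8 of 16 and Rpl10 in 6 of 16. The lower Rpl39l in extraembryonic ectoderm passed in all 17 settings (limma adjusted p from 2.5e-06 to 0.00208).

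The WT share moved by more than 1 SD when the median member replaced the sum (2.93% in oocytes, 0.325% in 1-cell and 6.31% in late 2-cell embryos, 14.1% in the first E3.5 table, 17.1% in extraembryonic ectoderm), with paralogs left out (0.474% in 1-cell embryos, 17.1% in extraembryonic ectoderm) and with Rn45s out of the total (18.4% and 26.7% in the E3.5 tables, 17.8% in extraembryonic ectoderm).

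With the replicate block 20 of 79 members passed at E4.25 (25.3%, beside 19.9% of genes), and it moved no other count of members. The labels do not say that a number marks shared animals. Correlations between libraries were taken on their differences from the mean of their own group, not on levels. For libraries with the same number they ran from 0.0586 to 0.14 at E4.25, -0.332 to 0.71 in oocytes, -0.174 to 0.303 at the 8-cell stage and -0.406 to 0.701 in the second E3.5 table. They were 0.515 to 0.557, 0.213 to 0.257 and 0.155 to 0.571 in 1-cell, late 2-cell and first E3.5 libraries, which have only 2 numbers. At E6.5 they were -0.162 to -0.005. Libraries with different numbers gave -0.134 to 0.144 at E4.25, -0.71 to 0.688 in oocytes and -0.436 to 0.436 at the 8-cell stage. In the second E3.5 table they gave -0.662 to 0.537. These ranges overlap those of the same numbers. The numbers in the epiblast columns are not those of the titles. A block on them within epiblast, chosen after seeing the data, left 0 of 79 members past limma's threshold in each of its 3 comparisons (0 to 0.0453% of genes), with 0 or 1 at an unadjusted p under 0.05. No paired analysis was possible for the tissues or the interaction because nothing links these numbers to those of the ectoderm. Read depth is unknown, so its limit on low members could not be computed.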
